A study of Mus musculus with 4 samples.

Results

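The genes of fatty acid synthesis and lipid storage were followed in mouse liver as 34 named members picked by gene symbol for their part in the pathway. The list was chosen with earlier results of these data known. All 34 were among the 18193 genes named on the array, and 33 of them lay above the filter on dim signals that kept 11993 genes. Cidec, the droplet fusion protein, was the member below it. Each gene is represented by its brightest probe set over all 4 arrays, and a signal is the deposited linear intensity of that probe set.

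The liver makes fatty acids from acetyl-CoA that it draws out of citrate or acetate, builds them into palmitate, and then lengthens and desaturates them. The products are joined to glycerol as triglyceride and are stored in droplets whose coat proteins hold lipases off or let them in. In hepatocytes the transcription factors SREBP-1, which responds to insulin, and ChREBP, which responds to carbohydrate, are known to drive most of the enzymes.

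The treated group, labelled delta MET + EGFRi, consisted of mice of genotype Metff/ff:ERCre+/+ given tamoxifen on 5 days, which has the inducible Cre delete exon 16 of Met, a gene whose product binds hepatocyte growth factor. After 4 days of rest these mice ate a diet with canertinib, which blocks the EGF receptor kinase, aimed at 80 mg/kg/day, and livers were taken 7 and 10 days after that diet began. Control mice were littermates of the same genotype that were given corn oil but no tamoxifen and no canertinib. Met loss, tamoxifen, canertinib and any change in food intake cannot be told apart. The sources used here do not give the promoter that drives Cre, the age of the mice or how many livers made up a pool. Livers of a group and day were pooled as RNA for 1 array, which gives 2 arrays per group and 1 per group and day.

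Median signals lay between 210.5 and 223.9 on the 4 arrays. The brightest Met probe set read 2432 and 2829 at day 7 and day 10 in treated livers and 976 and 1271 in control livers. Whether this probe set lies in the deleted exon was not checked, so it does not check the deletion. Of 9 hepatocyte markers 7 were among the genes named on the array. Their signals summed to 330272 and 269949 in treated livers and 284303 and 272850 in control livers. At both days 3 were higher and 1 was lower (26.7% and 31.1% of all genes), and 0 passed by limma. Hnf4a was 2.14-fold and 1.54-fold higher and Apob 1.86-fold and 1.37-fold, while Alb differed by 1.04-fold at each day. The fat cell hormone Adipoq lay under the floor of 64.8 on every array, and the 6 adipocyte markers measured summed to 1011 and 1387 in treated livers against 1514 and 1293 in control livers. The 9 Kupffer cell and macrophage markers summed to 36301 and 38739 in treated livers against 16545 and 9603 in control livers. All 9 were higher at both days, as were 26.7% of all genes. Limma called 2 of them higher, against 0.375% of all genes, namely Vsig4 (limma adjusted p = 0.0193) and Cd163 (limma adjusted p = 0.0174). The 6 neutrophil markers on the array summed to 7473 and 7757 in treated livers against 2337 and 2546 in control livers. Of these S100a8 and S100a9 rose, Mpo, Elane and Ngp did not pass, and Camp was under the floor on every array. Macrophages also express Cd36, Plin2 and other members, and the part of these cells in the results was not tested. In such whole-tissue RNA, fewer cells of a type and less RNA per cell cannot be told apart.

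To show the regulatory sequence of members that were lower together, the 250 bases before the start site are given for 4 members that were at least 2-fold lower at both days and are in the RefSeq promoter table, and for Acly and Fasn, which were at least 2-fold lower at day 7. Where a gene had more than 1 start site, the farthest upstream was taken. They are from RefSeq on build GRCm38.p6, 5′ to 3′ on the gene's strand, at chr9:86695915-86696164 (minus strand) for Me1, chr13:41220404-41220653 (minus strand) for Elovl2, chr9:77917115-77917364 (plus strand) for Elovl5, chr1:193273189-193273438 (minus strand) for G0s2, chr11:100528001-100528250 (minus strand) for Acly and chr11:120824548-120824797 (minus strand) for Fasn. Capitals mark matches, on either strand, to CACGTG (the E-box core), CCAAT (the core bound by NF-Y), GGGCGG (the core bound by Sp1) or TCACNCCAC (a sterol regulatory element). An LXR element, a pair of AGGTCA with any 4 bases between them, was searched as well.
Me1: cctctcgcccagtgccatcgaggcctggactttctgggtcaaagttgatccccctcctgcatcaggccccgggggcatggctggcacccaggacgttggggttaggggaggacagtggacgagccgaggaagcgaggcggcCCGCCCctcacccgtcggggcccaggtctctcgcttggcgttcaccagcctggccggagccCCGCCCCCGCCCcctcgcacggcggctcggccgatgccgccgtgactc
Elovl2: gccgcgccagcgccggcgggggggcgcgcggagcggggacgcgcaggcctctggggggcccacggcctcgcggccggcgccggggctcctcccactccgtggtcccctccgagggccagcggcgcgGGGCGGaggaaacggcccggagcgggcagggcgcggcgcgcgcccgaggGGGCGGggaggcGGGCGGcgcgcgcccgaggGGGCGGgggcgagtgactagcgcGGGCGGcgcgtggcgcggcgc
Elovl5: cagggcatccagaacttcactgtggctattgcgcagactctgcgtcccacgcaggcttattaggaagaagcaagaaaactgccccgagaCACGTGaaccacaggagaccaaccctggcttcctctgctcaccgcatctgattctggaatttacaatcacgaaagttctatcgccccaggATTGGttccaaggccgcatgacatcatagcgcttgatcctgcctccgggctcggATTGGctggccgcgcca
G0s2: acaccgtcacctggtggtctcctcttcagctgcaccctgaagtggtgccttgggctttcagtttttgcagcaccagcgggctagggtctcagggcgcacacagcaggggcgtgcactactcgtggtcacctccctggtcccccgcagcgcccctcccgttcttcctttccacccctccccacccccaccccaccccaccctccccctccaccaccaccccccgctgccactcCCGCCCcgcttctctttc
Acly: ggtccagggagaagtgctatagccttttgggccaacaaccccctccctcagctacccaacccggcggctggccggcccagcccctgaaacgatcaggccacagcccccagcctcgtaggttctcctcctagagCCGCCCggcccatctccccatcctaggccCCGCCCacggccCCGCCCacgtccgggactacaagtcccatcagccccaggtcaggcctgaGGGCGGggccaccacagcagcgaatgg
Fasn: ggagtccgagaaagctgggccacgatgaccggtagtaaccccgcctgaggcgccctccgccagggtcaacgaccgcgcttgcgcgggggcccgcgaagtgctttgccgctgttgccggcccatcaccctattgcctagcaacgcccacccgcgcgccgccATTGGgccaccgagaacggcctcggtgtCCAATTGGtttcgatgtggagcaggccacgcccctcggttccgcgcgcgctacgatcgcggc
Of the 34 members 28 had such a sequence. Elovl3 and Scd1, also at least 2-fold lower at both days, were not among them. At the start site farthest upstream CCAAT was found in 14 of the 28, against 34.5% of 27025 genes, and GGGCGG likewise in 14, against 33.0%. CACGTG was found in 3 members, Mlxipl, Elovl5 and Lpin2 (10.7% against 6.04%), TCACNCCAC in 0 (1.03% of all genes), and the LXR element in 0 members and 3 of all genes. Only these exact spellings within 250 bases were searched, so variant or more distant sites were not looked for. With the LXR spelling in 0.0111% of all genes and TCACNCCAC in 1.03%, finding 0 among 28 members was likely beforehand. When any listed start site of a gene counted, CCAAT and GGGCGG were each found in 16 members (37.5% and 35.4% of all genes). Matches of CCAAT on both strands overlap in Fasn. The upstream stretch of Elovl5 holds CACGTG and CCAAT and those of Me1, Elovl2, G0s2 and Acly hold GGGCGG. The 4 members shown that were lower at both days thus did not share a single one of these motifs.

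The first question was how these genes differed between treated and control livers over both days. The elongase Elovl3 and the desaturase Scd1 fell in treated livers. Me1, Elovl2, Elovl5 and G0s2 were at least 2-fold lower at both days without passing the test. In limma's test over 11993 genes 2 of 33 members fell and 0 rose at a Benjamini-Hochberg adjusted p under 0.05, against 0.283% and 0.375% of all genes. The count that fell was 8 when the treated array of day 7 was left out, where 2.24% of all genes fell, and 9 when that of day 10 was, where 1.3% did. It was 1 when either control array was left out (0.075% of all genes for day 7 and 0.0917% for day 10), and 0 with no filter on dim genes, where 0 of 18193 genes were called. At an unadjusted p under 0.05, 11 members were lower and 1 was higher, against 6.15% and 5.93% of all genes. Both treated arrays lay below both control arrays for 17 members (24.1% of all genes) and above them for 3 (20.3%). By sign alone 21 members were below control at both days and 5 above it, against 31.1% and 26.7% of all genes.

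The p-values measure the spread between arrays of different days and not between animals, with 2 residual degrees of freedom per gene. A size rule of 2-fold, without a test, is therefore used for single days.

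Members had a median log2 difference of -0.65 at day 7, where all genes had -0.06, and of -0.24 at day 10, where all genes had 0.01. At day 7, 15 of 33 members were at least 2-fold lower and 2 were at least 2-fold higher, against 5.16% and 4.6% of all genes. At day 10, 8 members were at least 2-fold lower and 0 were at least 2-fold higher, against 4.91% and 5.84% of all genes. At both days 6 members were at least 2-fold lower and 0 higher, against 1.14% and 1.54%. As the members were chosen with earlier results of these data known, these shares are a description and not a test.

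**Figure D1:**
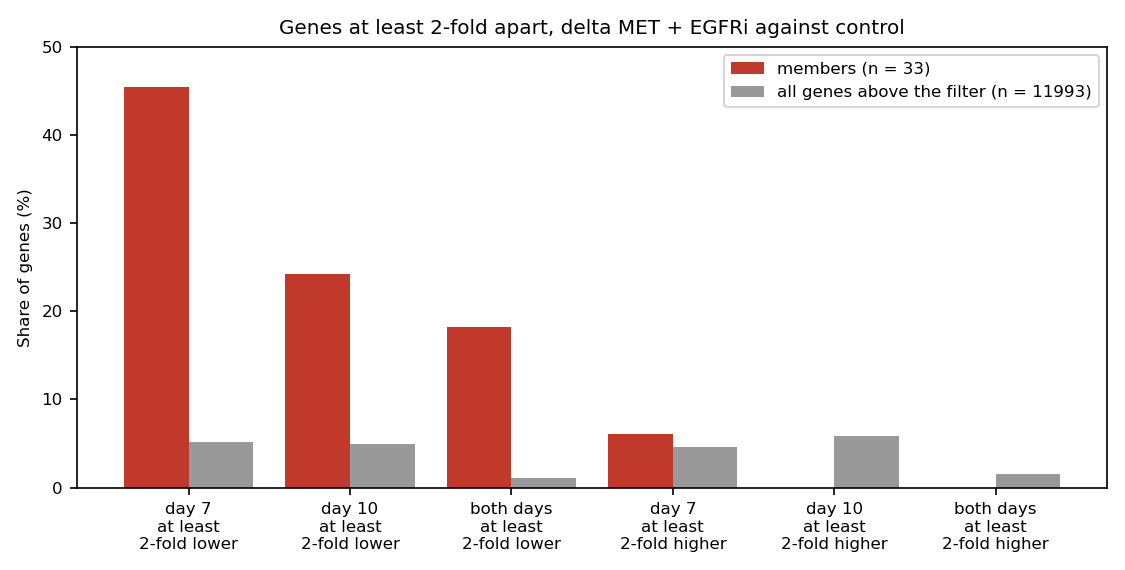
Bars give the percentage of genes at least 2-fold lower or higher in delta MET + EGFRi than in control livers, for the 33 members (red) and all 11993 genes above the filter (grey). At day 7, 45.5% of members were at least 2-fold lower against 5.16% of all genes, and no member was at least 2-fold higher at day 10. The members were chosen with earlier results of these data known.

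In carbon supply and chain synthesis all 6 genes were below control at both days (31.1% of all genes). Of these 0 were called by limma and 2 were lower at an unadjusted p under 0.05 (6.15% of all genes). Their median was -0.89 (day 7) and -0.63 (day 10) on the log2 scale. Acly, which splits citrate into the acetyl-CoA used for synthesis, read 5072 and 5531 at day 7 and day 10 in treated livers, against 15678 and 10626 in control livers. The groups did not overlap, and the log2 difference of -1.28 ± 0.25 (SE) did not pass (limma adjusted p = 0.121). The difference was -1.22 when the treated array of day 7 was left out, and -1.35 when that of day 10 was. Over all its alternatives it ran from -1.57 to -0.65. The 2 other kept probe sets of Acly gave -1.34 and -1.02 at day 7 and day 10, and -1.02 and -0.20.

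Me1, the malic enzyme that supplies NADPH for synthesis, read 4196 and 3098 in treated livers, against 11451 and 17520 in control livers. Every treated signal lay below every control signal, by 2.73-fold at day 7 and 5.65-fold at day 10. The log2 difference was -1.97 ± 0.29 (SE), just short of the threshold (limma adjusted p = 0.0504). Over its alternatives the difference ran from -2.28 to -1.67. The other probe set of Me1 had log2 differences of -0.48 at day 7 and -2.28 at day 10.

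Fasn, the synthase that builds palmitate, read 5641 and 4668 in treated livers and 12305 and 5810 in control livers. The treated arrays were the lower, but the day 10 control array came close to them (2.18-fold lower at day 7, 1.24-fold at day 10, limma adjusted p = 0.501). Acaca, which makes malonyl-CoA for synthesis, read 1938 and 1296 in treated livers and 1959 and 1410 in control livers. Its groups overlapped, with log2 differences of only -0.02 at day 7 and -0.12 at day 10. Over both days the difference was -0.07 ± 0.29 (SE; limma adjusted p = 0.949). The other kept probe set of Acaca lay below control at day 7 and above it at day 10 (-0.30 and 0.23). Acacb, whose malonyl-CoA at mitochondria holds back fatty acid oxidation, read 611 and 108 in treated livers against 760 and 844 in control livers. The low value was that of the day 10 treated array alone, 7.85-fold below its control, against 1.24-fold at day 7 (limma adjusted p = 0.451). Acss2, which makes acetyl-CoA from acetate, had a log2 difference of -0.65 at day 7 and -0.32 at day 10 (limma adjusted p = 0.705).

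The 3 regulators were below control at both days, as were 31.1% of all genes, and 0 passed by limma, none of them at an unadjusted p under 0.05. Srebf1, the gene of SREBP-1, read 2819 and 4045 in treated livers, against 7116 and 4416 in control livers. It was 2.52-fold lower at day 7 and 1.09-fold lower at day 10 (limma adjusted p = 0.423). Mlxipl, the gene of ChREBP, read 3949 and 4849 in treated livers and 5897 and 5302 in control livers, a log2 difference of -0.35 ± 0.22 (SE; limma adjusted p = 0.572). Thrsp, the Spot 14 protein that promotes lipid synthesis, read 9157 and 2325 in treated livers and 15248 and 7452 in control livers. It was lower at each day, by 1.67-fold and 3.2-fold, yet the day 7 treated array lay above the day 10 control array (limma adjusted p = 0.527).

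Desaturation and elongation held both called genes and the lowest median of the roles at day 7. Of its 9 genes 6 were at least 2-fold lower at day 7 (5.16% of all genes) and 4 at both days (1.14%). The medians were -1.52 (day 7) and -0.35 (day 10) on the log2 scale. With the mean of each gene's probe sets these medians were -1.13 and -0.85. Elovl3, which lengthens saturated and monounsaturated fatty acids, read 307 and 350 in treated livers, against 16697 and 16908 in control livers. The arrays of a group differed by 1.14-fold in treated and 1.01-fold in control livers, while the groups lay 54.5-fold apart at day 7 and 48.3-fold at day 10. The log2 difference was -5.68 ± 0.20 (SE; limma adjusted p = 0.000397, or 0.0708 with no filter on dim genes).

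Scd1, the desaturase that turns stearate into oleate, read 3761 and 6188 in treated livers, against 62724 and 67630 in control livers. It fell by 3.76 ± 0.28 (SE) on the log2 scale (limma adjusted p = 0.00492). It did not pass without the day 7 control array (limma adjusted p = 0.0643), without that of day 10 (limma adjusted p = 0.0912) or with no filter on dim genes (limma adjusted p = 0.184). A second, dimmer probe set read 552 and 879 in treated livers and 7779 and 12194 in control livers. It differed by -3.81 ± 0.33 (SE), close to the brightest set, and passed in a fit over probe sets (limma adjusted p = 0.0113). Its paralog Scd2 had overlapping groups, at 574 and 383 in treated livers and 420 and 431 in control livers (log2 difference 0.14 ± 0.29 SE, limma adjusted p = 0.881).

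Elovl5, an elongase of polyunsaturated fatty acids, read 7217 and 8841 in treated livers, against 21729 and 26124 in control livers. It was 3.01-fold lower at day 7 and 2.95-fold at day 10. The log2 difference of -1.58 ± 0.23 (SE) narrowly missed the threshold (limma adjusted p = 0.0502). Over its alternatives the difference ran from -1.72 to -1.43. The other probe set gave -1.53 and -1.42. Elovl2, which acts after Elovl5 on the same chains, read 4060 and 6150 in treated livers and 8858 and 14392 in control livers. The groups did not overlap, and the log2 difference of -1.18 ± 0.32 (SE) did not pass (limma adjusted p = 0.238). Leaving out the treated array of day 10 gave -1.48, and leaving out that of day 7 gave -0.88.

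**Figure D2:**
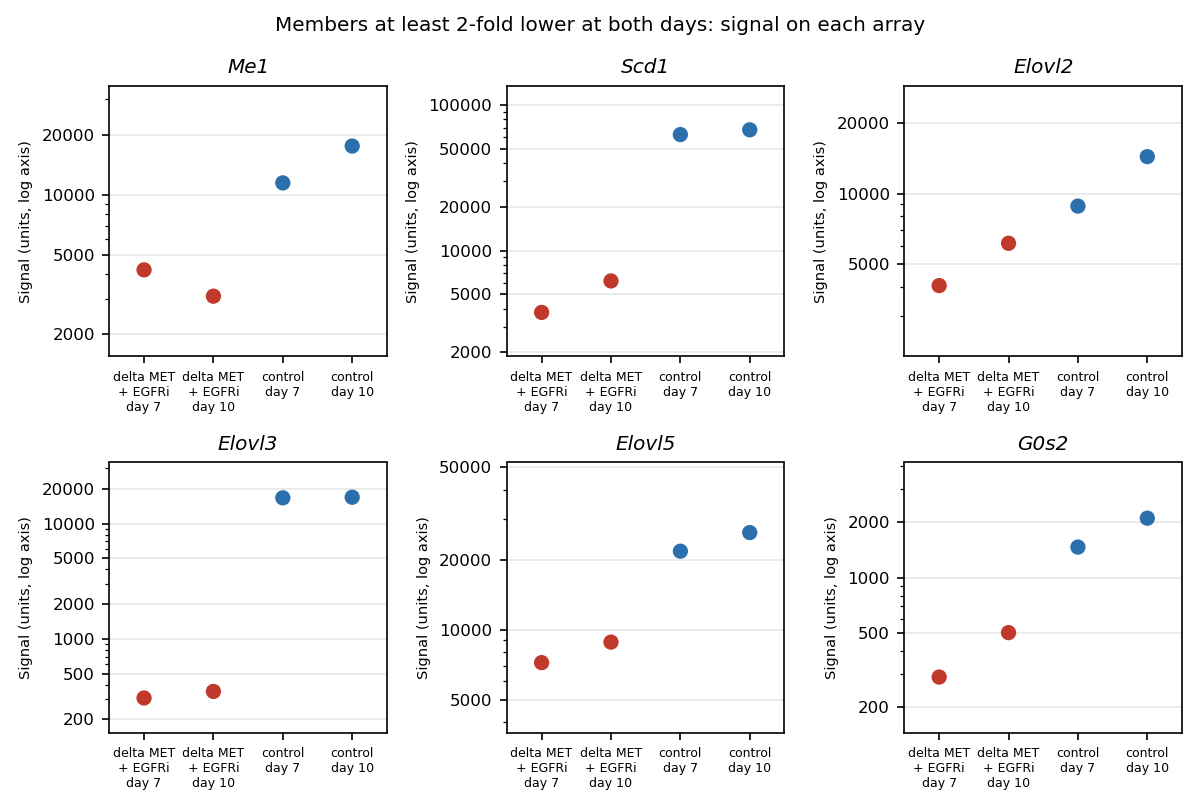
Each panel gives the signal (log axis) of a member at least 2-fold lower at both days on the 4 arrays, delta MET + EGFRi in red and control in blue. In all 6 panels both red points lie below both blue points, which this choice of members makes likely. They are farthest apart for Elovl3 (307 and 350 against 16697 and 16908).

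Elovl6 and Fads2 were lower at day 7 and near control at day 10. Elovl6, which lengthens palmitate to stearate, read 1547 and 2551 in treated livers and 4424 and 2965 in control livers (2.86-fold lower at day 7 and 1.16-fold at day 10, limma adjusted p = 0.37). Fads2, the desaturase that opens the polyunsaturated pathway, read 1160 and 2060 in treated livers and 4363 and 2632 in control livers (3.76-fold and 1.28-fold lower, limma adjusted p = 0.305). Other probe sets of these genes gave different values at day 10, with log2 differences of -0.79 and 0.53 for Elovl6 and -0.91 and -1.30 for Fads2. Over both days the log2 difference of Fads2 was -1.55 without the day 10 treated array and -0.72 without that of day 7. Fads1, which follows Fads2 in that pathway, read 15572 and 15823 in treated livers and 16169 and 15963 in control livers, a log2 difference of -0.03 ± 0.20 (SE). Elovl1, an elongase of very long saturated chains, differed by -0.09 ± 0.21 (SE), and neither passed (limma adjusted p = 0.965 and 0.895).

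Triglyceride assembly showed members on both sides of control. Of 8 genes 3 were lower and 3 higher at both days, against 31.1% and 26.7% of all genes. The medians were 0.24 (day 7) and -0.13 (day 10) on the log2 scale, and 0 passed by limma. At an unadjusted p under 0.05, 2 were lower and 1 higher, against 6.15% and 5.93% of all genes. Gpam, the mitochondrial enzyme of the first acylation of glycerol phosphate, read 8025 and 8005 in treated livers, against 17698 and 13239 in control livers. The groups did not overlap (log2 difference -0.93 ± 0.23 SE, limma adjusted p = 0.194). Mogat1, which acylates monoacylglycerol, read 354 and 446 in treated livers and 732 and 528 in control livers (limma adjusted p = 0.43).

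Lpin1, a phosphatidate phosphatase that also acts as a transcriptional coactivator, read 9687 and 2339 in treated livers, against 1971 and 1719 in control livers. The day 7 treated array stood apart, 4.92-fold above its control, against 1.36-fold at day 10, and a second probe set read 9453 and 1539 in treated livers and 1695 and 1901 in control livers. Over both days the log2 difference was 1.37 ± 0.61 (SE) and did not pass (limma adjusted p = 0.443). Leaving out the treated array of day 10 gave 2.40, and leaving out that of day 7 gave 0.35. Its paralog Lpin2 had overlapping groups, higher by 0.41 at day 7 and with a difference of -0.83 at day 10 on the log2 scale.

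The acyltransferase Agpat2 had the same difference at each day, -0.57 and -0.55 (limma adjusted p = 0.347), and its paralog Agpat3 was higher by 0.51 and 0.96 (limma adjusted p = 0.284, unadjusted p = 0.0161). The other 3 probe sets of Agpat3 had the opposite sign at day 10, from -0.68 to -0.30. For the final acyltransferases Dgat1 and Dgat2 the log2 differences over both days were 0.19 ± 0.21 and 0.22 ± 0.26 (SE; limma adjusted p = 0.76 and 0.779).

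Among droplet, lipolysis and uptake genes G0s2 was lower at both days, and Plin2, Pnpla2 and Pnpla3 were at least 2-fold apart at day 7. Of 7 genes above the filter 1 was at least 2-fold lower at both days (1.14% of all genes) and 0 passed by limma. At an unadjusted p under 0.05, 1 was lower (6.15% of all genes). G0s2, the inhibitor of the triglyceride lipase Pnpla2, read 290 and 504 in treated livers, against 1462 and 2095 in control livers. It was 5.05-fold lower at day 7 and 4.15-fold at day 10. Over both days the log2 difference was -2.19 ± 0.34 (SE, limma adjusted p = 0.0588), and from -2.59 to -1.79 over its alternatives. With day as a replicate block it passed (limma adjusted p = 0.0492).

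Pnpla2 itself, adipose triglyceride lipase, read 4299 and 2171 in treated livers and 1798 and 2187 in control livers. Only the day 7 treated array was high, 2.39-fold above its control (limma adjusted p = 0.536 over both days). Plin2, the main droplet coat protein of hepatocytes, read 4987 and 18411 in treated livers and 16650 and 18752 in control livers. The day 7 treated array was the low one, 3.34-fold below its control, and at day 10 the ratio was 1.02 (limma adjusted p = 0.588). Pnpla3, a lipid hydrolase of droplets that SREBP-1 controls, read 194 and 432 in treated livers and 409 and 299 in control livers, 2.11-fold lower at day 7 and 1.44-fold higher at day 10 (limma adjusted p = 0.844).

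The coat proteins Plin4 and Plin5 differed by 0.05 ± 0.29 and -0.17 ± 0.24 (SE) on the log2 scale, and the fatty acid transporter Cd36 by 0.30 ± 0.31 (limma adjusted p from 0.75 to 0.964). The brightest set of Cd36 gave 0.41 at day 7 and 0.18 at day 10. Its 2 other kept probe sets gave 0.25 and -0.23, and -0.18 and -0.16. Cidec, below the filter, read 86.2 and 86.7 in treated livers and 97.4 and 115 in control livers.

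**Figure D3:**
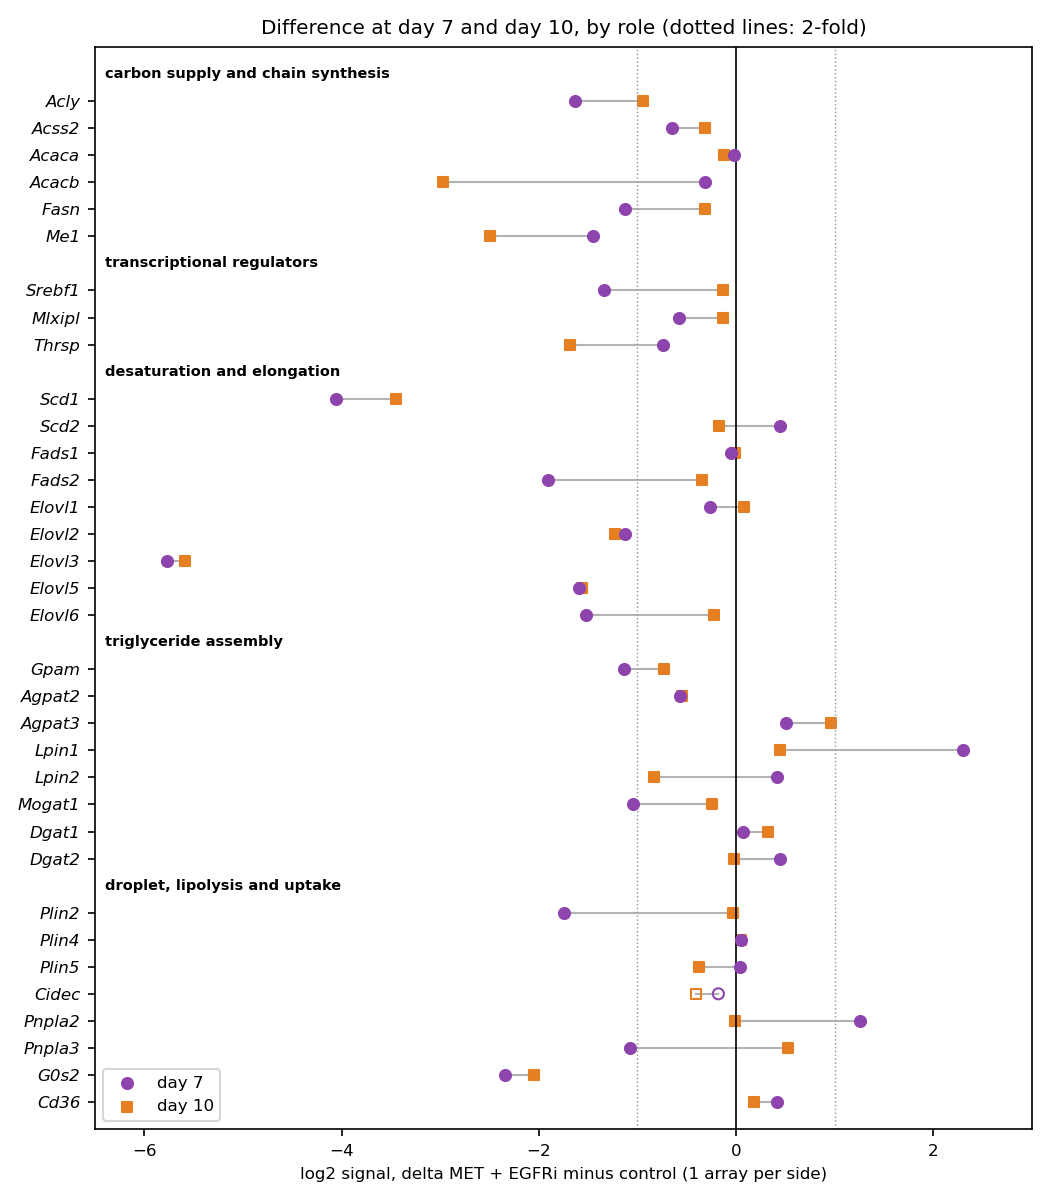
Log2 difference of each member, delta MET + EGFRi minus control, at day 7 (circles) and day 10 (squares), 1 array per side, grouped by role. Open symbols mark Cidec, below the filter, and dotted lines mark 2-fold. Elovl3 and Scd1 lie farthest to the left at both days, while Lpin1 lies 2.30 to the right at day 7 and 0.44 at day 10.

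The second question was how the differences moved between day 7 and day 10. Of 9 members at least 2-fold lower at day 7 but not at day 10 (Acly, Fasn, Srebf1, Fads2, Elovl6, Gpam, Mogat1, Plin2 and Pnpla3), 8 had a lower signal at day 10 than at day 7 in control livers and 7 had a higher one in treated livers. Their median log2 change over the days was 0.52 in treated and -0.56 in control livers. Among all 481 genes chosen the same way these medians were 0.86 and -0.40, with 94.8% higher at day 10 in treated and 83.0% lower in control livers, so that choosing on the day 7 difference brings such changes with it.

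Over the days 3 members were at least 2-fold lower at day 10 in treated livers (3.78% of all genes), namely Acacb, Thrsp and Lpin1. Plin2 and Pnpla3 were at least 2-fold higher there (3.84%). In control livers 3 members were at least 2-fold lower at day 10 (3.09%), namely Fasn, Acss2 and Thrsp, and 0 were higher (2.05%). Fasn was 1.21-fold lower at day 10 in treated and 2.12-fold lower in control livers, so that its smaller difference at day 10 went with the control array. Plin2 was 3.69-fold higher at day 10 in treated and 1.13-fold higher in control livers. With 1 array per group and day, change over time cannot be told apart from variation between pools.

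**Figure D4:**
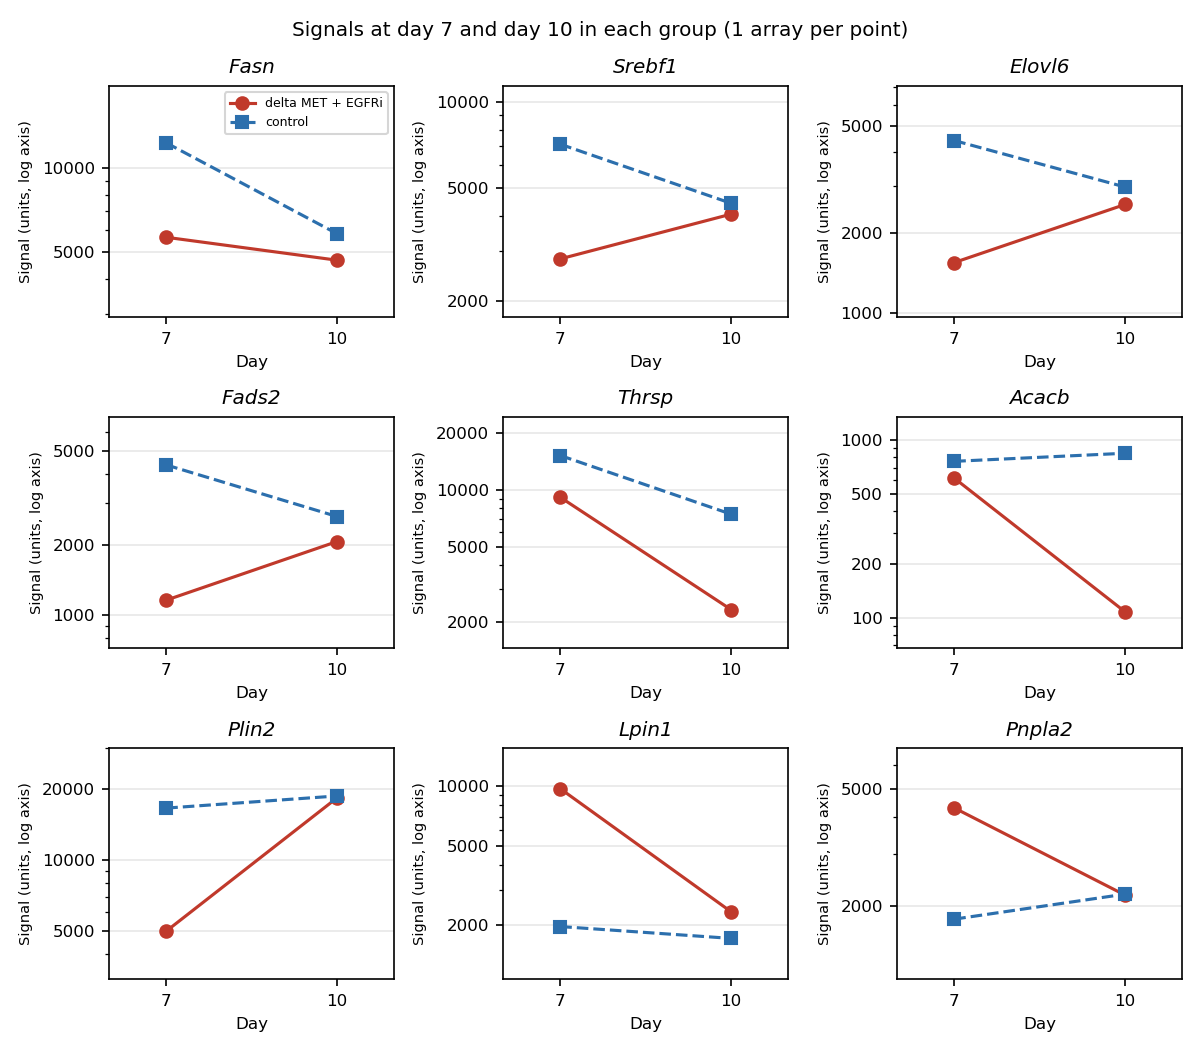
Signals (log axis) at day 7 and day 10 for 9 members, delta MET + EGFRi in red with solid lines and control in blue with dashed lines, 1 array per point. The lines for Fasn, Srebf1, Elovl6 and Fads2 come closer at day 10, where each control point is lower than at day 7. The treated point is higher at day 10 for Srebf1, Elovl6 and Fads2 and lower for Fasn. Plin2 and Pnpla2 nearly meet at day 10, with the larger change in the treated point (4987 and 18411 for Plin2).

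The third comparison set other genes of the pathway beside the members. Its counts are over genes above the filter. Limma's test called 0.283% of all genes lower and 0.375% higher. At an unadjusted p under 0.05, 6.15% of all genes were lower and 5.93% higher. Of 16 partners of droplets and lipolysis 1 fell (0.283% of all genes) and 3 were at least 2-fold lower at both days (1.14% of all genes). Fitm1, which helps to form droplets, read 521 and 465 in treated livers, against 1550 and 2350 in control livers, and fell by 1.95 on the log2 scale (limma adjusted p = 0.0415). The monoacylglycerol lipase Mgll read 1344 and 1460 in treated livers and 3513 and 3529 in control livers (limma adjusted p = 0.0534), and the lipase Aadac read 7218 and 9210 in treated livers and 19864 and 24267 in control livers (limma adjusted p = 0.0705). In all 3 genes the groups did not overlap, which being at least 2-fold lower at both days makes likely. Both treated arrays lay below both control arrays for 24.1% of all genes.

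Of 15 genes of fatty acid uptake and activation 0 passed by limma, with 3 lower and 2 higher at an unadjusted p under 0.05. Fabp1, the fatty acid binding protein of liver, read 2909 and 26549 in treated livers, against 58376 and 63240 in control livers. Both treated arrays lay below control, the day 7 array by far the most, with log2 differences of -4.33 and -1.25 (limma adjusted p = 0.314). Fabp2 differed by -2.12 and -1.04 and the acyl-CoA synthetase Acsl5 by -1.24 and -0.78 (limma adjusted p = 0.224 and 0.158).

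Of 11 genes of NADPH and carbon supply 0 passed by limma and 1 was lower at an unadjusted p under 0.05. This gene was Pklr, the liver pyruvate kinase, with log2 differences of -0.82 at day 7 and -1.17 at day 10 (limma adjusted p = 0.247). Idh1 and Mdh1, which also feed the cytosolic pools, differed by -0.45 and -0.37 over both days (limma adjusted p = 0.484 and 0.529).

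Of 14 genes of SREBP-1 and LXR control 0 passed by limma, with 0 lower and 2 higher at an unadjusted p under 0.05, and the medians were -0.07 and 0.13. Srebf2, the gene of the sterol regulator, had log2 differences of 0.85 and 0.36, Rxra, the partner of LXR, 0.42 and 0.89, and Mid1ip1, a paralog of Thrsp, -0.55 and -0.70 (limma adjusted p from 0.37 to 0.466).

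Of 11 partners of elongation and desaturation 0 passed by limma, with 2 lower and 2 higher at an unadjusted p under 0.05. The dehydratase Hacd3 and its relative Hacd4 were higher, by 1.09 and 0.81 and by 0.77 and 1.23 on the log2 scale, and Cyb5r3, which passes electrons toward the desaturases, had differences of -0.73 and -1.20 (limma adjusted p from 0.151 to 0.224). Of 6 paralogs of triglyceride assembly 0 passed by limma and 1 was higher at an unadjusted p under 0.05. This was Gpat3, an acyltransferase of the endoplasmic reticulum, with log2 differences of 1.11 and 1.48, where Gpam of the mitochondria had -1.14 and -0.73 (limma adjusted p = 0.174 for Gpat3). Agpat4 and Lclat1 differed by -0.21 and -0.97 over both days (limma adjusted p = 0.822 and 0.443).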

How the data were processed

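Livers were measured on 4 single-colour Affymetrix arrays. The deposited values are linear intensity values per probe set, made with MAS5 per the submitters' processing notes, its version not given in the sources used here. Each array's mean after trimming 2% at each end was 500. The table lists 45101 probe sets, including 64 array controls, and 34945 had a single gene symbol in the platform annotation, and only these were used (99.4% matched RefSeq of GRCm38.p6 by Entrez ID). Signals under the 25th percentile (64.8) were raised to that value before log2. A gene was kept if its brightest probe set averaged over 7.67 (log2; signal 204), the median over probe sets. The test was limma 3.58.1 under R 4.3.3 (intensity trend, two-sided, 2 arrays per group, all genes), after tests on simulated data, and figures drawn with matplotlib 3.10.9.

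The members and lists were chosen with earlier results of these data known. Values on every array were given for members called, or at least 2-fold apart at a day, and for Acly, Acaca, Fasn, Srebf1 and Mlxipl; of other lists, called genes and the 3 with the largest smaller daily difference of the same sign were named. Day 7 and day 10 are shared by both groups in the labels, so day served as a block in an alternative; the day deviations of the groups correlated at -0.07 across 11993 genes. Alternatives were the normalization, floor, filter, probe set rule, trend, day block, thresholds, size rules and leaving out each array. Arrays carry no read depth; their number limits the precision.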

Additional observations from a re-analysis of the deposited data

Results flagged for a closer look

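For 7 members the treated livers lay on opposite sides of control at day 7 and day 10, with 1 array per side and no test of the difference between the days. Among all genes 31.1% were below control at both days and 26.7% above it, against 63.6% and 15.2% of members. Changing side was thus common among all genes and not particular to the members. The effect at day 10 minus that at day 7, on the log2 scale, was 1.61 for Pnpla3 (-1.08 at day 7 and 0.53 at day 10), -1.27 for Pnpla2 (1.26 and -0.01) and -1.24 for Lpin2 (0.41 and -0.83). All 3 kept probe sets of Lpin2 were above control at day 7 and below it at day 10. The difference was smaller for Scd2 (-0.62, from 0.45 and -0.17), Dgat2 (-0.47, from 0.45 and -0.02), Plin5 (-0.42, from 0.04 and -0.38) and Elovl1 (0.34, from -0.26 and 0.08). In the brightest probe sets of these 4 genes no daily difference reached 1.5-fold. At day 7 another kept set differed by 1.11 for Plin5 and by 0.72 for Scd2. Another set of Dgat2 lay above control at both days (0.31 and 0.17). Elovl1 had another set above control at both days (0.13 and 0.07) and another below it (-0.05 and -0.20).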

How the results depend on the processing

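The count of members called lower, 2 as reported, was 5 with quantile normalization (0.375% of all genes), with arrays scaled to equal medians (0.409%), with a 75th percentile filter (0.547%) and at an adjusted p under 0.1 (0.575%), and 4 with the floor at the 40th percentile (0.382%). It was 0 with no filter on dim genes, where the limma adjusted p of Elovl3 was 0.0708 and that of Scd1 0.184. With day as a replicate block it was 3, and G0s2 was the member added. Leaving out each array gave from 1 to 9 members called lower, namely 8 when the treated array of day 7 was dropped (2.24% of all genes), 9 when that of day 10 was (1.3%), and 1 when either control array was (0.075% and 0.0917%); the lone array left is assumed to vary like the other group. The count called higher, 0, was 1 (Lpin1) without the day 10 treated array (1.45%) and from 0 to 1 over these fits. Elovl3 kept its call in 12 of 13 alternatives and Scd1 in 10 of 13. Under a 3-fold rule 7 members were lower and 1 higher at day 7 (1.61% and 1.78% of all genes), and 3 were lower at both days (0.384%); under a 1.5-fold rule 1 was higher at day 10 (14.6%). Averaging each gene's probe sets, 1 member was at least 2-fold higher at day 7 and 1 at day 10 (4.06% and 5.1%), and the medians of desaturation and elongation were -1.13 and -0.85; the cause of these changes was not tested. Of 28 other kept probe sets of 19 members, 24 had the sign of the brightest at day 7 and 16 at day 10. Dim signals are limited by the floor.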

Other observations

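Probe sets of a gene gave different values for some members. Plin5 was read by a brighter set at 2070 and 2148 in treated and 2013 and 2790 in control livers, and by another at 1317 and 967 in treated and 610 and 1052 in control livers, so that its log2 difference at day 7 was 0.04 or 1.11. For Agpat3 the brightest set gave 0.51 and 0.96, and another gave 1.05 and -0.68. For Thrsp the difference at day 10 was -1.68 in the brightest set and -0.84 in the next. The cause of these differences was not tested.

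Some pathway genes outside the members and the naming rule had large differences at a single day and are named after their values were seen. Ces1d, a lipase that mobilises stored triglyceride, differed by -0.13 at day 7 and -3.91 at day 10 on the log2 scale, and the droplet protein Hsd17b13 by 0.42 and -2.38. The fatty acid binding protein Fabp5 differed by -2.46 and 0.57, and the glucose transporter Slc2a2 by 0.18 and -1.84. None of these 4 genes passed by limma, and none had an unadjusted p under 0.05.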
